A study of Mus musculus with 2 samples.

Results

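The GABA-A receptor genes described here encode the alpha2, alpha3, alpha4 and alpha5 subunits (Gabra2, Gabra3, Gabra4, Gabra5), gamma1 and gamma3 (Gabrg1, Gabrg3), delta (Gabrd) and epsilon (Gabre). They were chosen by gene symbol, and all 8 were found among the 31252 gene rows of the count table. RNA was sequenced from the ventral midbrain of mice that were 2 months old, in 1 library labelled Ctrl and 1 library labelled OE. Both genotypes carry Slc6a3-Cre, in which the dopamine transporter gene drives Cre, and the strain was an incipient congenic C57BL/6. Only OE mice carry CAG-S-COUP-TFII at ROSA26, from which Cre switches on COUP-TFII in dopaminergic (DA) neurons. In the crosses that the methods describe, every littermate also inherits at least 1 floxed Tfam allele and a tdTomato reporter at ROSA26, but the labels name neither for these mice. How many mice went into a library is not given.

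GABA-A receptors are chloride channels built from several subunits and carry most of the fast inhibition in the brain. A common form holds alpha and beta subunits with a gamma subunit, and it sits at synapses. Delta takes the place of gamma in receptors outside the synapse, which respond to low levels of GABA and produce a steady inhibitory current. Delta is known to pair with alpha4 in the thalamus and the dentate gyrus and with alpha6 in cerebellar granule cells. In the midbrain, DA neurons receive strong GABAergic input, and alpha3 is known as a prominent alpha subunit of monoaminergic neurons.

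All 8 proteins share the loop closed by a pair of cysteines that gives this channel family its name, and the stretch that encodes it is shown for each gene because it lets the genes be compared over the same 45 bases. Sequences are from the GENCODE M21 transcripts (GRCm38, the same assembly as mm10, the build in the submitters' processing notes). They read 5′ to 3′ on the coding strand, and the capitals mark the codons of the cysteines.
Gabra2: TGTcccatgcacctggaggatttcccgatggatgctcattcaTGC
Gabra3: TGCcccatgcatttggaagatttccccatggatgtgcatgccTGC
Gabra4: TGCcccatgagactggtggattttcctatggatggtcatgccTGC
Gabra5: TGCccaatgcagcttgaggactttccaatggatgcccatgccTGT
Gabrg1: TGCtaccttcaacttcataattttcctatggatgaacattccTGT
Gabrg3: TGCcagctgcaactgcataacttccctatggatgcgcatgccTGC
Gabrd: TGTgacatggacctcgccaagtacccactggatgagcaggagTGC
Gabre: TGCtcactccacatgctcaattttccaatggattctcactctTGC

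Of the other 7 genes, Gabrd shared the fewest bases with Gabra2 in this stretch, 28 of 45, whereas Gabra3 shared 36, Gabra4 35 and Gabra5 34. The stretch of Gabrd lies at chr4:155387877-155387921. Over the whole proteins, translated from the longest coding transcript, alpha2 and alpha3 were 73.6% identical and alpha2 and alpha5 73.2%. Alpha4 was 61.0% identical to alpha2, and gamma1 and gamma3 were 70.9% identical. Delta was 37.8% identical to alpha4, 37.8% to gamma3 and 37.7% to gamma1, and less to the others. The expected counts of all 8 genes were whole numbers in both libraries.

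A second stretch is shown because it separates alpha4 from the other 3 alpha subunits. Classical benzodiazepines such as diazepam act on receptors whose alpha subunit has a histidine at one position of the extracellular domain, and alpha subunits with an arginine there are insensitive. The capitals mark the codon of that position, which a search of the translated sequences found at residue 129 of alpha2, 154 of alpha3, 135 of alpha4 and 136 of alpha5, counted from the first methionine.
Gabra2: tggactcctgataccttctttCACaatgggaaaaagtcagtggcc
Gabra3: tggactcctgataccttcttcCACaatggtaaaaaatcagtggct
Gabra4: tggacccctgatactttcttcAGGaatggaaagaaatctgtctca
Gabra5: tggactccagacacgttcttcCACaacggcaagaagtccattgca
The marked codon encodes histidine in Gabra2, Gabra3 and Gabra5 and arginine in Gabra4. These stretches lie at chr5:71014484-71014528, chrX:72501147-72501191, chr5:71641131-71641175 and chr7:57488870-57488914, each within 1 exon on the minus strand.

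The libraries were checked first, and paired values are given with the Ctrl label first. The totals were 16984336 counts (labelled Ctrl) and 21326632 counts (labelled OE). Nr2f2, the gene of COUP-TFII, had 637 and 377 counts, with a log2 fold change of -1.07 (interval -1.26 to -0.88), so the overexpressed gene goes against the labels. Every difference below is OE label over Ctrl label, and each sign would turn if the labels were exchanged. The libraries also differed in their tissue markers. All 16 markers of DA neurons were higher under the OE label (median 1.26 on the log2 scale), and all 10 thalamus markers were lower (median -1.48). Past log2 0.2, 6 of 12 markers of all neurons were higher and 1 lower, 0 of 8 astrocyte markers higher and 1 lower, 0 of 6 oligodendrocyte markers higher and 4 lower, and 0 of 6 microglia markers higher and 3 lower. Of 4 striatum markers 1 was higher and 1 lower, and of 3 markers of GABAergic neurons 1 was higher and 0 lower. The labels name DA neurons as the cell type, yet the oligodendrocyte gene Mbp had 128974 and 139810 counts and the astrocyte gene Slc1a2 29850 and 32867, so the RNA is that of mixed tissue. In such bulk RNA, fewer cells of a type and less RNA per cell cannot be told apart.

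With 1 library per genotype, no difference has a replicate check and no test between genotypes was possible. The log2 fold changes compare TMM-normalized counts after a pseudocount of 0.5, and the interval beside each is a 95% exact interval for the way a gene's reads divide between the libraries, which covers counting error only. All 8 subunit genes averaged 10 or more counts and so entered the comparison with the 15246 genes that did. Of the 8 genes, 4 were lower under the OE label by more than log2 0.2 (Gabrd, Gabrg3, Gabra4 and Gabrg1), where the share among all genes was 16.6%. None was higher by as much, where the share among all genes was 17.9%. The counting interval lay below 0 for the same 4 genes, against 14.4% of all genes, and above 0 for 0 of the 8, against 15.8%. Past log2 1, Gabrd alone was lower (1.28% of all genes) and 0 were higher (1.53%). The 8 genes had a median of -0.15 on the log2 scale (-0.076 without Gabrd), and all tested genes 0.0046.

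**Figure D1:**
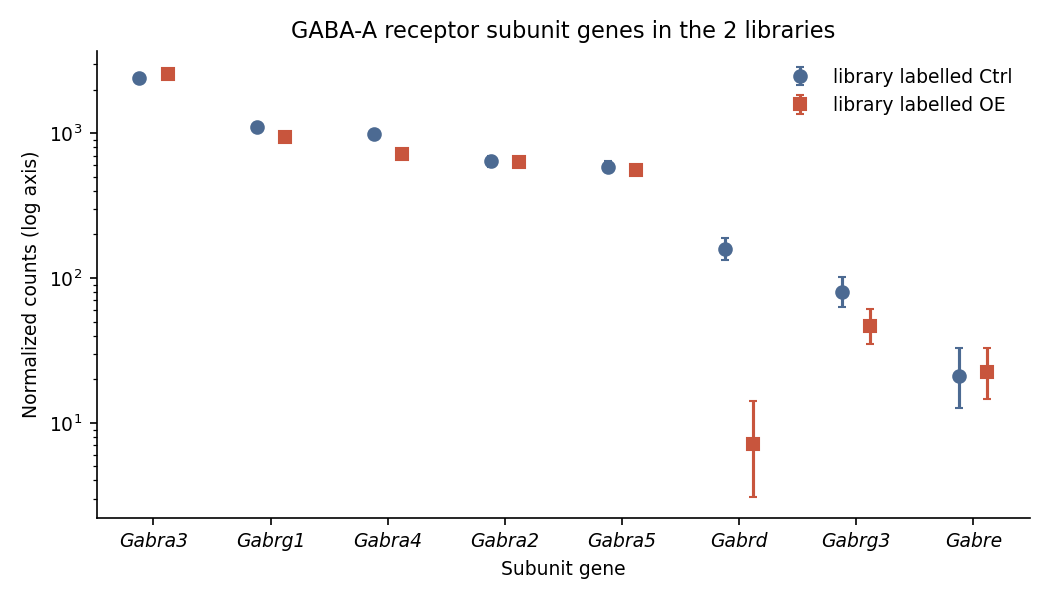
Normalized counts of the 8 subunit genes (log axis) in the Ctrl-labelled library (circles) and the OE-labelled library (squares), ordered by the level in the Ctrl-labelled library, with 95% Poisson intervals that cover counting error only. Gabrd drops from 159 to 7.18 normalized counts, while Gabra2, Gabra3, Gabra5 and Gabre lie at nearly the same height in both.

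The delta subunit differed most. Gabrd, at chr4:155384980-155398112 on the minus strand, had 143 counts under the Ctrl label (95% Poisson interval 120.5 to 168.5) and 8 under the OE label (3.45 to 15.8). These are 159 and 7.18 normalized counts. With the pseudocount added to both, the level was 20.8 times as high in the Ctrl-labelled library. The log2 fold change was -4.38 (interval -5.71 to -3.46), and 0.052% of the 15246 genes ranked below it. The 8 counts leave the size of the difference loosely bounded, but the whole interval lies far below that of any other of the 8 genes.

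Markers of regions known for delta, and of the hypothalamus, are given beside Gabrd, and they did not all differ in the same direction. The thalamus markers summed to 17374 and 9009.9 normalized counts, and none of the 10 was at 0 in both libraries. Tcf7l2, a thalamic transcription factor, was lower by log2 -2.78, Rora by -1.02 and Adarb1 by -0.34. Gbx2, with 29.88 and 0 counts, was at least 12.4-fold lower against a floor of 3 counts. Apart from Gbx2, the thalamus markers ranged from -0.34 to -2.85 (Rgs16), beside -4.38 for Gabrd. With 0 counts under the OE label, the value of Gbx2 is only a bound, so its size cannot be set against that of Gabrd. Of the 5 markers of cerebellar granule cells, which summed to 383 and 153 counts, Fat2 had 0 counts in both libraries, Gabra6, which encodes alpha6, had 0 and 2, and Cbln3 10 and 14, while Zic1 had 319 and 97 and Neurod1 54 and 40. Of 4 tested markers of hippocampus and cortex, 2 were higher and 2 lower, and the list summed to 601 and 472 counts. Slc17a7, a vesicular glutamate transporter of cortical and some thalamic neurons, had 231 and 50 counts, and Prox1, which marks dentate granule cells and also other neurons, had 302 and 255. Of 5 tested hypothalamus markers 1 was higher and 4 lower. The neuropeptide genes Avp, with 80.64 and 1 counts, and Oxt, with 48.36 and 2, were among the lower genes. Both were under the floor of 3 counts in the OE-labelled library, so the sizes of their differences cannot be set against that of Gabrd either. The other lower genes, Pmch (-0.26) and Pomc (-0.73), had intervals that included 0. Sim1 was higher, with 58 and 108 counts and a log2 fold change of 0.58 (interval 0.11 to 1.07). The part of these tissue differences in the value of Gabrd was not tested.

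Gabra4 encodes alpha4, a partner of delta in the thalamus and the dentate gyrus. It had 888 and 802 counts, which are 989.8 and 719.5 normalized counts, and its log2 fold change was -0.46 (interval -0.60 to -0.32). The difference was in the direction of Gabrd but far smaller. For each Gabrd count there were 6.21 Gabra4 counts (interval 5.20 to 7.46) in the Ctrl-labelled library and 100.25 (50.6 to 233) in the OE-labelled library. This ratio is taken within a library and does not depend on the scaling between them.

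The alpha subunits with the histidine codon differed less than Gabra4. Gabra3, the most abundant of the 8 genes, had 2173 and 2847 counts, and its log2 fold change was 0.077 (interval -0.0045 to 0.16). Gabra2, whose subunit is enriched at synapses on the axon initial segment of forebrain neurons, had 639.8 and 629.8 normalized counts, with -0.023 (interval -0.18 to 0.14). Gabra5, whose subunit forms mostly extrasynaptic receptors in the hippocampus, had 527 and 621 counts, with -0.076 (interval -0.25 to 0.094). None of these 3 intervals excluded 0 after TMM scaling. That depends on the scaling: by the all-neuron markers, the values were -0.19 for Gabra2 (interval -0.35 to -0.030), -0.092 for Gabra3 (-0.17 to -0.011) and -0.25 for Gabra5 (-0.42 to -0.075), and by the upper quartile, Gabra3 had 0.090 (0.0091 to 0.17). Within the libraries, Gabra2 had 0.65 counts for each Gabra4 count (interval 0.58 to 0.72) in the Ctrl-labelled library and 0.88 (0.79 to 0.97) in the OE-labelled library, intervals that do not overlap. Gabra3 had 2.45 (2.26 to 2.65) and 3.55 (3.28 to 3.84) for each Gabra4 count, likewise apart. Beside these values, Slc6a3, the dopamine transporter gene, had 4955 and 15033 counts (log2 fold change 1.29), and Th, the gene of the enzyme that limits dopamine synthesis, had 2499 and 9354 (1.59). The part of the difference in DA neuron markers in the subunit values was not tested.

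Both gamma genes were lower in the OE-labelled library. Gabrg1, which encodes a gamma subunit that gives receptors a low sensitivity to benzodiazepines, had 991 and 1051 counts, and its log2 fold change was -0.23 (interval -0.36 to -0.10). Gabrg3, which encodes the gamma3 subunit, had 72 and 52 counts, with -0.78 (interval -1.33 to -0.25), and 2.28% of all genes ranked below it. Its interval is wide because of the few counts, and it overlaps that of Gabra4 and of Gabrg1. There were 13.8 Gabrg1 counts for each Gabrg3 count (interval 10.8 to 17.7) in the Ctrl-labelled library and 20.2 (15.3 to 27.2) in the OE-labelled library. The log2 change of this ratio was 0.55, and its exact counting interval, 0.003 to 1.11, reached almost to 0.

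The epsilon gene was near the limit of this depth. Gabre, which is best known from the locus coeruleus and the hypothalamus, had 19 and 25 counts. Its log2 fold change was 0.081, with an interval from -0.84 to 1.02 that holds differences of either sign. The noradrenergic markers Dbh and Phox2a had 0 counts in both libraries, and Slc6a2 had 0 and 2.

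**Figure D2:**
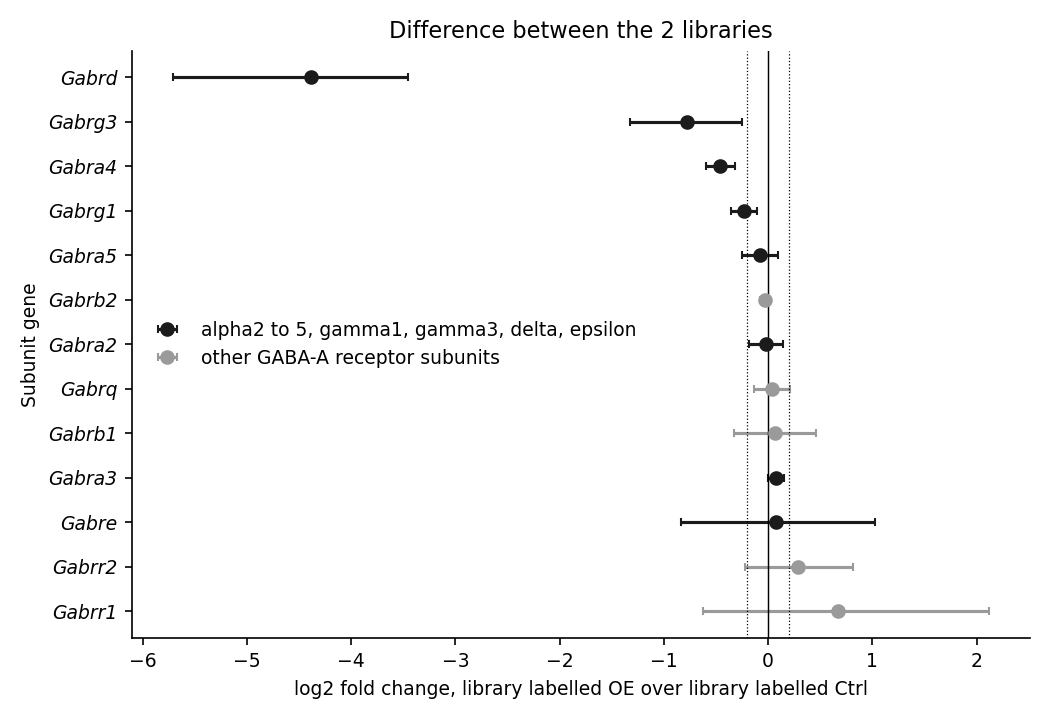
Log2 fold change (OE label over Ctrl label) of the 8 subunit genes (black) and of 5 other GABA-A receptor subunit genes (grey), with 95% counting intervals. Dotted lines mark log2 0.2 in either direction. Gabrd stands at -4.38, Gabrg3, Gabra4 and Gabrg1 lie between -0.78 and -0.23, and the other genes with narrow intervals sit within log2 0.2.

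The other GABA-A receptor subunits were described in the same way. Of 11 such genes, 8 were tested. Past log2 0.2, 2 of these were higher and 0 lower, and their median was 0.050. Gabrb2 and Gabrb1, which encode beta subunits, had 6671 and 8097 counts (log2 fold change -0.034) and 97 and 126 counts (0.064). Gabrq, which encodes the theta subunit, had 0.037. The genes past log2 0.2 were those of the rho subunits known from the retina, Gabrr1 with 8 and 16.14 counts and Gabrr2 with 54 and 81.86 counts. Their intervals, from -0.62 to 2.12 and from -0.22 to 0.81, included 0. Gabrp and Gabrr3 were at or under the floor of 3 counts in both libraries.

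The levels of the 8 genes were put in order within each library, as counts scaled to library size (CPM) per kilobase of the longest annotated transcript. In the Ctrl-labelled library, Gabra3 led with 34.8, 2.75 times the level of the next gene (interval 2.54 to 2.97). Gabra4 (12.7), Gabrg1 (12.2) and Gabra5 (11.6) followed, and neighbours among these 3 did not differ beyond counting error. Gabra2 (5.74) and Gabrd (3.09) came next, each apart from its neighbours, and Gabrg3 (0.43) and Gabre (0.26) were last and not apart from each other. In the OE-labelled library, Gabra3 again led with 36.6, followed by Gabra5 (11.0), Gabrg1 (10.4), Gabra4 (9.20) and Gabra2 (5.65). Here Gabra4 was below Gabrg1 by a ratio of 1.13 (interval 1.03 to 1.24). Gabre (0.27), Gabrg3 (0.25) and Gabrd (0.14) closed the order, and no neighbours among these 3 were apart. Gabrd thus went from the sixth place to the last.

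**Figure D3:**
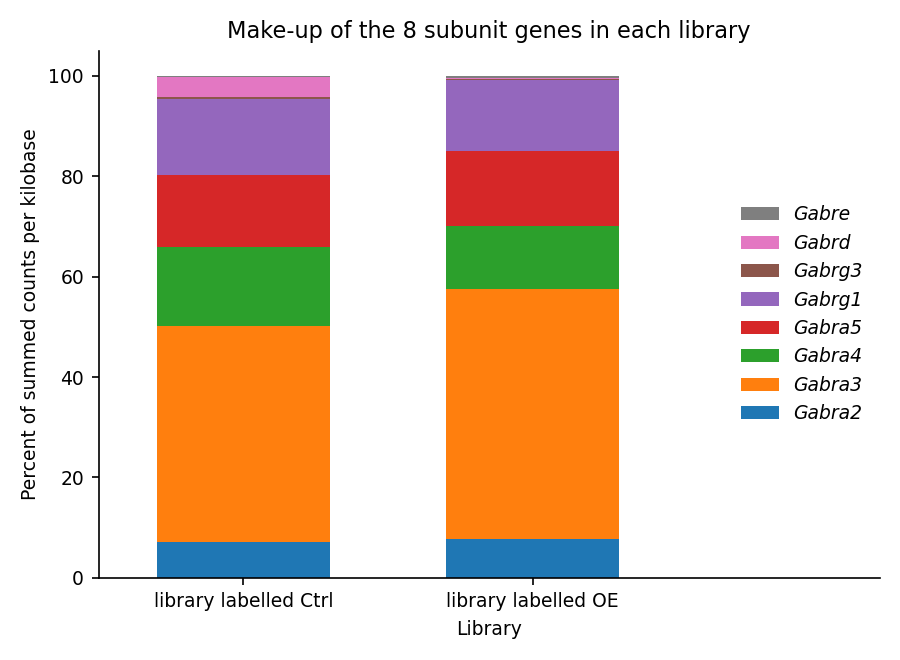
Share of each of the 8 subunit genes in their summed counts per kilobase, in percent, for the Ctrl-labelled library and the OE-labelled library. The segment of Gabrd shrinks from 3.84% to 0.19% and that of Gabra4 from 15.7% to 12.5%, and that of Gabra3 grows from 43.1% to 49.9%.

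Shares within a library gave the make-up of the group without any scaling between libraries. Per kilobase, Gabra3 made up 43.1% of the 8 genes in the Ctrl-labelled library and 49.9% in the OE-labelled library. Gabra4 made up 15.7% and 12.5%, Gabrg1 15.1% and 14.1%, Gabra5 14.3% and 14.9%, and Gabra2 7.12% and 7.69%. Gabrd made up 3.84% and 0.19%, the smallest share of the 8 genes under the OE label. Counting error was put on the shares of the counts themselves, 5387 counts in the Ctrl-labelled library and 6108 in the OE-labelled library. There, Gabrd held 2.65% (exact binomial interval 2.24% to 3.12%) and 0.13% (0.057% to 0.26%), and Gabra4 16.5% (15.5% to 17.5%) and 13.1% (12.3% to 14.0%). Gabra3 held 40.3% (39.0% to 41.7%) and 46.6% (45.4% to 47.9%). The intervals of the libraries did not overlap for these 3 genes. They overlapped for Gabra2, Gabra5, Gabrg1, Gabrg3 and Gabre. Among the 4 alpha genes alone, the share of Gabra4 in counts per kilobase was 19.6% and 14.7%.

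GABA-A receptor genes lie in clusters, and the values are given by cluster. On chromosome 5, Gabrg1, Gabra2 and Gabra4 lie in this order on the minus strand, within chr5:70751047-71658308, and had log2 fold changes of -0.23, -0.023 and -0.46. Gabrb1 starts head to head with Gabra4 on the plus strand, at chr5:71658113-72149037, with 5′ ends that overlap by about 0.2 kb, and had 0.064 (interval -0.33 to 0.46). For each Gabrb1 count there were 9.15 Gabra4 counts (interval 7.42 to 11.4) in the Ctrl-labelled library and 6.37 (5.27 to 7.74) in the OE-labelled library. The libraries were stranded, but whether strand was used in counting is not given in the sources used here, so reads in the overlap cannot be assigned with certainty. On chromosome 7, Gabrg3 (chr7:56716465-57387188) and Gabra5 (chr7:57407672-57510059) lie 20.5 kb apart, with -0.78 and -0.076. Exons of Gabra5 overlap those of Gm9962. On the X chromosome, Gabre (chrX:72255999-72274803), Gabra3 (chrX:72432681-72656848) and Gabrq had 0.081, 0.077 and 0.037, so no member of this cluster was past log2 0.2. Gabrd lies alone, and with a span of 13.1 kb it is the shortest of the 8 genes, against 670.7 kb for Gabrg3. Its coding sequence had 56.05% G and C, second to the 57.2% of Gabre, and the other 6 genes had 41.3% to 48.3%.

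COUP-TF proteins are known to bind repeats of the half-site AGGTCA, so the promoters were searched for it. RefSeq promoter windows (GRCm38.p6) were matched by symbol for 7 of the 8 genes, with 8 windows in all, since Gabra3 has a pair of them. Gabrd was not among them. The 250 bases before the start site held AGGTCA on neither strand in any of the 8 windows, and hence no direct repeat of it with 1 base between. Of 32851 promoter windows of the same length, 14.0% held the half-site and 0.033% the direct repeat. The windows differed in base content, from 35.6% G and C for Gabrg1 to 70.0% for Gabra2, with a median of 52.4% over all windows.

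**Figure D4:**
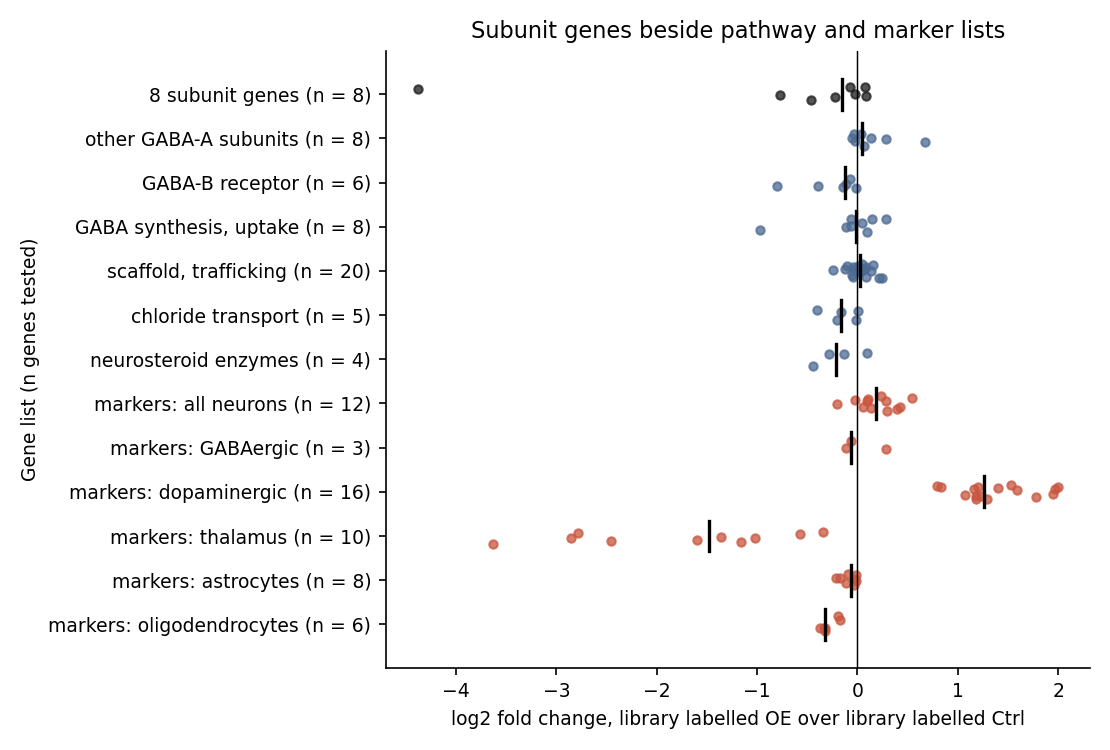
Log2 fold changes (OE label over Ctrl label) of single genes, as points, in the 8 subunit genes (black), pathway lists (blue) and 6 of the marker lists (red), with a bar at each median. Gbx2 is drawn at its bound against 3 counts. The medians of the GABA lists lie between -0.21 and 0.050, that of thalamus markers at -1.48 and that of DA neuron markers at 1.26.

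The rest of the GABA system was described from lists, with shares of all genes past log2 0.2 as given above. For the GABA-B receptor, which acts through G proteins, 0 of 6 genes were higher and 2 lower, with a median of -0.13. The smaller of these in counts, Kctd16, had 20 and 14 counts and an interval that included 0. Gabbr1 and Gabbr2, its subunits, had -0.014 and -0.11, and Kctd12, an auxiliary subunit, had 1369 and 1293 counts, with -0.40 (interval -0.51 to -0.28). For synthesis and uptake of GABA, 1 of 8 genes was higher and 1 lower, with a median of -0.010. Gad1 and Gad2, which make GABA, had -0.11 and -0.065. Slc32a1, the vesicular transporter, was higher with 0.29 (interval 0.20 to 0.37), and Slc6a13, a GABA transporter of the meninges, was lower with -0.98 (interval -1.47 to -0.51).

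For scaffold and trafficking proteins, 2 of 20 genes were higher and 1 lower, with a median of 0.025. Gphn, which encodes the scaffold gephyrin, had -0.024. Slitrk3, an adhesion protein of inhibitory synapses, was lower with -0.24 (interval -0.39 to -0.10), and Iqsec3 and Gabarapl1 were higher with 0.24 and 0.21. For chloride transport, 2 of 5 genes were lower and 0 higher. Slc12a5, the neuronal chloride exporter, had 0.0105, and Clcn2, a chloride channel, had -0.21 (interval -0.36 to -0.060). Slc12a7, a further exporter, had 82 and 77 counts and an interval that included 0. Neurosteroids are known to act strongly on receptors with delta. Of 4 tested genes for their synthesis and transport, 2 were lower and 0 higher, with a median of -0.21, and Srd5a1, which encodes a steroid 5-alpha-reductase, had 316 and 289 counts, with -0.44 (interval -0.68 to -0.21). The other lower gene, Akr1c14, had 54 and 55 counts, with -0.28 and an interval of -0.86 to 0.28 that included 0.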

How the data were processed

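RNA from mouse ventral midbrain was measured in 1 library labelled Ctrl and 1 library labelled OE. A company extracted the RNA, made stranded mRNA libraries and read both ends over 50 bp. Its in-house workflow gave the deposited values, which per the file are RSEM expected counts that the authors deposited per gene, without scaling between libraries. The submitters' processing notes name the build mm10, and the aligner, the RSEM version and the annotation are not given in the sources used here. Each column was tied to its sample by the number in the sample title. Expected counts were rounded for intervals.

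Counts were scaled with TMM factors of 1.01 and 0.99 (edgeR 4.0.16, R 4.3.3), and Clopper-Pearson and Poisson intervals of 95% came from scipy 1.17.1. No p-value was computed. Intervals and floors cover counting error only. The named genes were the 8 subunit genes, Nr2f2, 5 tested genes of the other subunits (some genes of the lists are counted in them but not reported here by name), list genes past log2 0.2 with an interval that excluded 0 (up to 3 a list), and markers with high counts. Gbx2, Rgs16, Avp, Oxt, Pmch, Pomc, Sim1, Kctd16, Slc12a7 and Akr1c14 were named after their values were seen. So were the granule cell markers, the noradrenergic markers and list genes inside log2 0.2. The members and lists were chosen with earlier results of these data known. Positions, lengths and coding sequences came from GENCODE M21, promoters from RefSeq, and protein identities, over aligned residues, from pairwise alignments (Biopython 1.88). The interval was tried on simulated Poisson counts, the model it assumes, which checks the calculation but not variation between mice or dissections. Alternatives were scaling by total counts, upper quartile, DESeq2 size factors (1.42.0) or neuronal markers, a pseudocount of 5, other count minimums and other transcript lengths. Figures were drawn with matplotlib 3.10.9.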

Additional observations from a re-analysis of the deposited data

How the results depend on the processing

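No paired analysis was possible because only 1 library stood for each genotype. The number of subunit genes lower by more than log2 0.2 was 4 under all alternatives but 2: it was 5 after scaling by the all-neuron markers, and 2 with a mean of at least 100 counts, where Gabrd, Gabrg3 and Gabre are no longer tested and 0 were lower by more than log2 1. Scaling by the all-neuron markers, which were themselves higher in the OE-labelled library (median 0.19), moved the median of all genes to -0.16 and the share of all genes lower by more than log2 0.2 from 16.6% to 42.0%, with 8.59% higher. It moved the median of the 8 genes to -0.32, Gabra2 to -0.19, Gabra3 to -0.092, Gabra4 to -0.63, Gabrg1 to -0.40 and Gabra5 to -0.25, which made Gabra5 the fifth gene past log2 0.2. Gabra3 and Gabre changed sign there, both with intervals that included 0 in the main comparison. Gabrd ranged from -4.54 to -3.75 and Gabrg3 from -0.94 to -0.72 over their alternatives. The share of Gabrd in the Ctrl-labelled library, 3.84%, was 2.98% with median transcript lengths, 2.65% without length and 5.32% with the longest coding transcript, a choice added after the data were seen. The 8 Gabrd counts and the 52 Gabrg3 counts in the OE-labelled library limit the precision of both.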
